A study of Mus musculus with 12 samples.

Results

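*Gata3* encodes the transcription factor that directs T helper 2 (Th2) differentiation, *Il4*, *Il5* and *Il13* encode the cytokines that Th2 cells release, and *Il1rl1* encodes ST2, the receptor for the alarmin IL-33. These 5 genes were taken by symbol from the 26608 genes listed in each count table, with no value used as a criterion. Earlier results of these data were known, and the paper already lists *Il4* among genes raised in both DKO groups. The libraries were made from CD4+ YFP(FOXP3)- T cells of mice at 14 weeks of age, sorted as cells that lack the YFP reporter at *Foxp3*, with spleen, cervical and inguinal lymph nodes pooled. There were 4 WT, 4 DKO-moderate and 4 DKO-severe libraries. WT mice were *Foxp3Cre* WT and carried the YFP-Cre reporter at *Foxp3* without floxed *Tet* alleles. Both DKO groups were *Foxp3-Cre Tet2/3 fl/fl*, in which Cre driven from *Foxp3* deletes *Tet2* and *Tet3*, and they were divided by the number of cells in spleen and lymph nodes, lower in DKO-moderate and higher in DKO-severe. The sorted cells of DKO mice are a mixture of ex-Treg cells that lost FOXP3 and of conventional CD4+ T cells, and a bulk library does not separate them. In such libraries, fewer cells of a type and less RNA per cell cannot be told apart.

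In Th2 cells, IL-4 acts through the IL-4 receptor and STAT6 to raise GATA3, and GATA3 in turn opens and activates the cluster that holds *Il4*, *Il13* and *Il5*. IL-33 binds ST2 on Th2 cells, on group 2 innate lymphoid cells (ILC2), on mast cells and on part of the Treg cells, and drives release of IL-5 and IL-13. IL-4 is also a cytokine of T follicular helper (Tfh) cells, in which GATA3 is low, and basophils release both IL-4 and IL-13. The comparisons below ask how far each of the 5 genes differed between mice without *Tet2/3* deletion and mice with moderate or severe disease.

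Coordinates are those of GENCODE on GRCm38, the build named mm10 in the authors' alignment. *Gata3* (ENSMUSG00000015619) lies on the minus strand of chr2:9857078-9890034. *Il4* (ENSMUSG00000000869, minus strand, chr11:53602982-53618669), *Il13* (ENSMUSG00000020383, minus strand, chr11:53631324-53634702) and *Il5* (ENSMUSG00000036117, plus strand, chr11:53720794-53725106) lie in this order on chromosome 11, with 12654 bp between *Il4* and *Il13* and 86091 bp, which hold *Rad50*, between *Il13* and *Il5*. *Il1rl1* (ENSMUSG00000026069) lies on the plus strand of chr1:40429570-40465415, beside other receptor genes of the IL-1 family.

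GATA factors bind short sequences with the core GATA, and the 250 bases before the annotated start sites of the 4 cytokine and receptor genes are shown to place these motifs beside the expression values. The sequences are from RefSeq on GRCm38.p6, 5′ to 3′ on the strand of the gene, with AGATAA and AGATAG, and the forms of both that start with T, on either strand in capitals. *Il1rl1* has a distal start site (chr1:40429320-40429569) and a proximal one (chr1:40439379-40439628), and the windows of *Il4*, *Il13* and *Il5* are chr11:53618666-53618915, chr11:53634703-53634952 and chr11:53720544-53720793.
Il1rl1, distal: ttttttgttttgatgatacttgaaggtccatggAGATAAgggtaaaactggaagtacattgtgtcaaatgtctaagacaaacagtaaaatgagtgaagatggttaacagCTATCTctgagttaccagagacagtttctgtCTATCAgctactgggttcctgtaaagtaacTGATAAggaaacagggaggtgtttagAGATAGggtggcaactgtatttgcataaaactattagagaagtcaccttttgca
Il1rl1, proximal: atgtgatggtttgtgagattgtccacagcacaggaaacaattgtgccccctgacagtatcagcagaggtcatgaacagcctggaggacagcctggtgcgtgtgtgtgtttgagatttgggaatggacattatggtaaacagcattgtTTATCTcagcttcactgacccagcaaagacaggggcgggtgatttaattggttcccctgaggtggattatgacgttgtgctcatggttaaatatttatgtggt
Il4: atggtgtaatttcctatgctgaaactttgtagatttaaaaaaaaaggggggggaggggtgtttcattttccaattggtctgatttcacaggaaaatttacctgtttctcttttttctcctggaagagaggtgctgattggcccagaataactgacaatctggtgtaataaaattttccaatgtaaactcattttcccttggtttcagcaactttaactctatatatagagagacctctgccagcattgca
Il13: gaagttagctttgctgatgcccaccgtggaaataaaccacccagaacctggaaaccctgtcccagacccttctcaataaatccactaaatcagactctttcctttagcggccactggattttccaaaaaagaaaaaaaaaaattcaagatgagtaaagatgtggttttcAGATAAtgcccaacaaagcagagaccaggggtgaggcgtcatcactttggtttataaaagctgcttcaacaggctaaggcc
Il5: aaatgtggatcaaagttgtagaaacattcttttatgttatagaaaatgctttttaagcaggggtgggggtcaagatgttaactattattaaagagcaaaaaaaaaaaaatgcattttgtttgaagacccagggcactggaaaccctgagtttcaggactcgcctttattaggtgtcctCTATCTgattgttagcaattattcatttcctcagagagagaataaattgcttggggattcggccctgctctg
The distal *Il1rl1* window held 5 matches, *Il13*, *Il5* and the proximal *Il1rl1* window held 1 each, and this *Il4* window held 0. Among 32851 RefSeq promoter windows of the same length, 26.5% held at least 1 match and 1.35% held 3 or more. A second *Il4* start site (chr11:53617339-53617588) had 1 match and the *Gata3* window (chr2:9878601-9878850) had 0. With the core GATA alone, which 53.6% of windows hold, the distal *Il1rl1* window had 6 matches and the *Il4* window shown still had 0. A match is a description of the letters in the window, and the enhancers of these genes lie outside it.

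Each library held between 29254260 and 42133536 reads on genes, and levels are in CPM, read counts scaled to the TMM-adjusted total of their library. Of all genes, 16035 passed the filter on low counts, and all 5 members were among them. *Il5* passed only through the DKO groups, with 15 reads in DKO-moderate and 41 in DKO-severe against 2 in WT. The 8 general T cell genes summed to 4504 to 5139 CPM in WT, 4960 to 5227 CPM in DKO-moderate and 3896 to 4391 CPM in DKO-severe. Against WT, 1 of them rose and 4 fell in DKO-severe, where 26.6% of all tested genes rose and 25.9% fell. In DKO-moderate 3 rose and 0 fell, where 12.3% of all tested genes rose and 4.74% fell. *Tet2* was at 43.3 to 62.2 CPM in WT, 34.8 to 57.8 CPM in DKO-moderate and 56.7 to 65.8 CPM in DKO-severe (in DKO-severe, log2 fold change 0.22 relative to WT, SE 0.15, edgeR adjusted p = 0.234). *Tet3* was at 167.4 to 210.4 CPM in WT and 90.3 to 184.7 CPM in DKO-moderate (log2 fold change -0.50, SE 0.19, adjusted p = 0.0902), and it fell to 87.8 to 102.5 CPM in DKO-severe (log2 fold change -1.03, SE 0.19, adjusted p = 0.000859). Reads were counted over the whole gene and not over the floxed exons, and conventional T cells in the mixture may lack the deletion, so these levels do not test it. The paper describes *Foxp3-Cre* expression as having been considered leaky. Its qPCR found *Tet2* undetectable in Tfh cells sorted from DKO-severe mice. *Foxp3*, against which the cells were sorted, was at 0.13 to 3.10 CPM. Libraries differed in transcripts of other cells. The 8 B cell genes summed to 212.4 CPM in WT 3, against 6.81 to 15.2 CPM in the other WT libraries, to 21.5 to 47.5 CPM in DKO-moderate and to 70.4 to 383.0 CPM in DKO-severe. The 10 neutrophil genes summed to 2061 CPM in DKO-severe 1 and 758.9 CPM in DKO-severe 2, and to at most 22.1 CPM elsewhere. Because basophils make IL-4 and IL-13, their markers are given by library beside these genes.

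*Gata3* was abundant in every library and nearly level between groups, whereas the mRNAs of its cytokine targets were rare. Mean *Gata3* was 73.6 ± 10.8 CPM in WT, 83.6 ± 8.80 CPM in DKO-moderate and 71.3 ± 5.09 CPM in DKO-severe (SD, n = 4 each), above 79.4% of tested genes in WT. Per kilobase of exon, mean *Gata3* in WT was 18.5 CPM, followed by *Il4* at 1.38, *Il1rl1* at 0.37, *Il13* at 0.24 and *Il5* at 0.0099 CPM per kilobase. In DKO-severe the order per kilobase was *Gata3* (17.9 ± 1.28), *Il13* (4.69 ± 7.39), *Il4* (3.45 ± 1.34), *Il1rl1* (0.89 ± 0.35) and *Il5* (0.19 ± 0.31; SD, n = 4), in which the place of *Il13* relative to *Il4* was within the spread between mice.

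**Figure D1:**
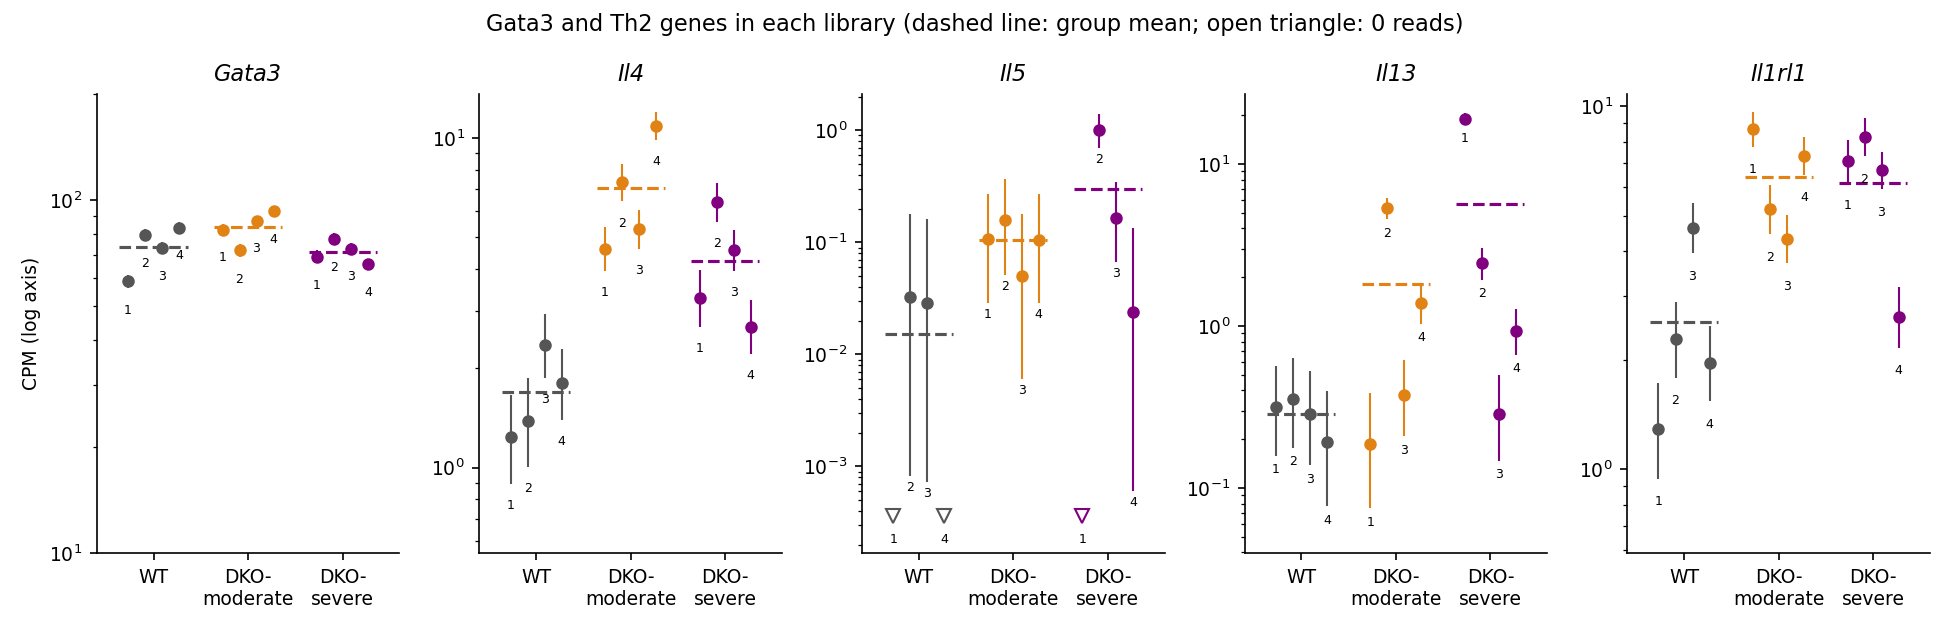
CPM (log axis, a separate range in each panel) of the 5 genes in each library, with exact Poisson 95% intervals that cover counting error only, the replicate number under each point, the group mean as a dashed line and open triangles for libraries with 0 reads. *Gata3* lies between 58.8 and 92.8 CPM throughout, all DKO libraries exceed WT for *Il4*, and a single library carries most *Il5* and most *Il13* reads in DKO-severe.

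Of the 5 members, 4 (*Il4*, *Il5*, *Il13* and *Il1rl1*) rose in DKO-severe against WT and 0 fell, where 26.6% of all tested genes rose and 25.9% fell (edgeR quasi-likelihood test, adjusted p under 0.05). *Il5* entered the test only through its DKO reads, which favoured a rise against WT in advance. In DKO-moderate against WT, 1 member (*Il4*) rose and 0 fell, where 12.3% of tested genes rose and 4.74% fell. In DKO-severe against DKO-moderate, 0 of 5 passed in either direction with edgeR, DESeq2 or limma voom, where 9.41% of tested genes rose and 10.7% fell, and 0 of the 5 had an unadjusted p under 0.05 in the edgeR fit. Non-overlapping libraries, with every DKO library above every WT library, were found for 1 member in DKO-severe (24.6% of tested genes) and for 2 in DKO-moderate (14.6%). No member had every DKO-severe library above every DKO-moderate library (9.77% of tested genes). The median log2 fold change of all tested genes was between -0.03 and 0 in the 3 comparisons. Without WT 3, DKO-severe 1 and DKO-severe 2, a choice made after seeing the data, 2 members (*Il4* and *Il1rl1*) rose in DKO-severe and the same 2 in DKO-moderate. Of all genes tested in that fit, 23.4% rose in DKO-severe and 11.8% in DKO-moderate. Without DKO-moderate 2 and 4 and DKO-severe 1 and 2, the libraries with the most basophil reads, only *Il4* of the 4 members then tested rose in either comparison with WT. In that fit 26.7% of all tested genes rose in DKO-severe and 7.13% in DKO-moderate. The libraries left out there were also those with the highest *Il13*. With the neutrophil and the B cell gene means as covariates, 0 of 5 passed in DKO-severe against WT (edgeR, 0 also at an unadjusted p under 0.05), and 2 (*Il4* and *Il1rl1*) rose in DKO-moderate. Every DKO-severe library had a higher neutrophil sum (9.74 CPM or more) than every WT library (2.21 CPM or less). The neutrophil covariate therefore overlaps with the group, and the fit cannot fully tell them apart. Calls over all 16035 genes in that fit numbered 3306 in DKO-severe, against 8428 without the covariates, and 2319 in DKO-moderate, against 2734. With a term for 4 basophil genes, chosen after seeing the data, 0 of 5 passed in DKO-severe (0 unadjusted) and 0 in DKO-moderate (2 unadjusted), where 4983 and 679 of all genes were called. The sums of these basophil genes in DKO-severe (1.24 to 15.4 CPM) were likewise all above those in WT (0.029 to 0.46 CPM). DESeq2 called 4 members in DKO-severe and 2 in DKO-moderate, and limma voom 2 and 1, where DESeq2 called 8480 and 3911 of all genes and limma voom 8396 and 2380.

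**Figure D2:**
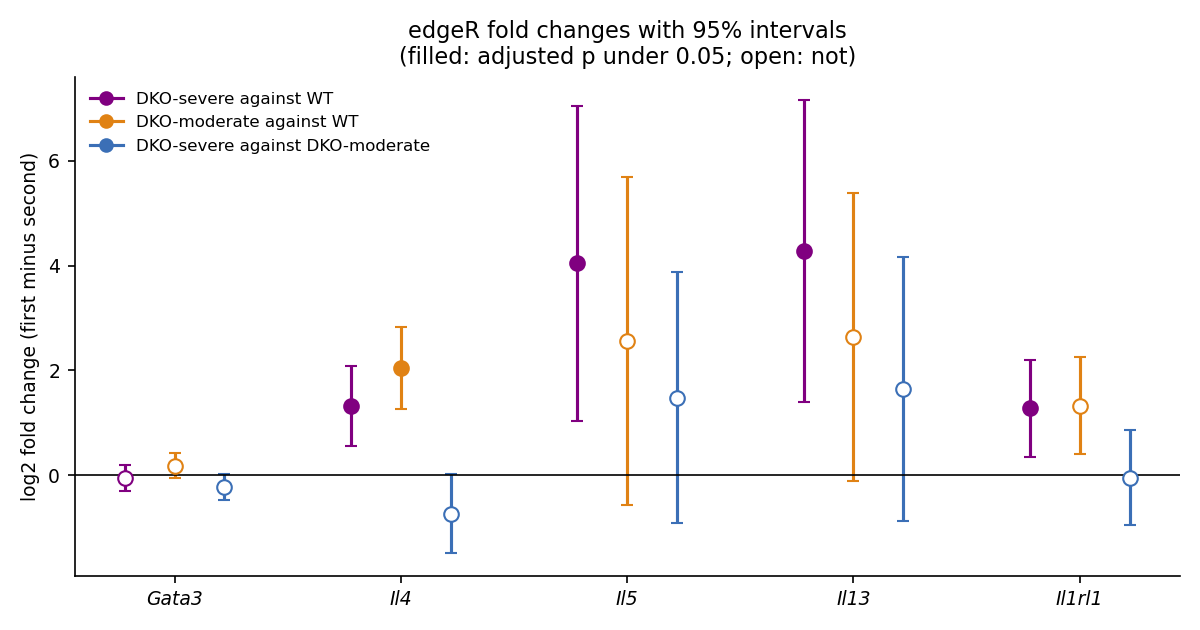
Log2 fold changes of the 5 genes in the 3 comparisons with 95% intervals from the edgeR fit, filled where the adjusted p was under 0.05. The *Gata3* intervals are narrow and include 0, those of *Il4* against WT lie above 0, and those of *Il5* and *Il13* span several log2 units.

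*Gata3*, the master regulator of the Th2 lineage, which naive CD4+ T cells and Treg cells also express, was measured in WT at 58.8, 79.4, 73.0 and 83.4 CPM. The DKO-moderate libraries had 82.3, 72.1, 87.1 and 92.8 CPM, and the DKO-severe libraries 69.1, 77.5, 72.8 and 65.6 CPM. The 3 groups overlapped, and reads per library, from 2046 to 3508, left little counting error. In DKO-severe against WT the fold was 0.97 (95% interval 0.82 to 1.15, edgeR adjusted p = 0.738). The fold was 1.13 in DKO-moderate against WT (95% interval 0.96 to 1.35, adjusted p = 0.284) and 0.85 in DKO-severe against DKO-moderate (95% interval 0.72 to 1.01, adjusted p = 0.157). DKO-moderate was thus the highest group and DKO-severe the lowest, but no neighbours in this order differed beyond their spread. The small difference between DKO-severe and WT turned positive with other scalings, to a log2 fold change of 0.04 with the size factors of DESeq2 and 0.14 with library size alone, and did not pass in either. With library size alone the median of all tested genes was itself at 0.18 in this comparison, above *Gata3*.

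*Il4*, the cytokine that drives Th2 differentiation and that Tfh cells give to B cells, had the smallest adjusted p of the 5 members in both comparisons with WT. The WT libraries had 1.24, 1.39, 2.36 and 1.80 CPM, the DKO-moderate libraries 4.62, 7.34, 5.29 and 10.9 CPM, and the DKO-severe libraries 3.28, 6.39, 4.57 and 2.68 CPM. Each of the 8 DKO libraries was above each WT library, while the DKO groups overlapped. *Il4* rose 4.14-fold in DKO-moderate (95% interval 2.41 to 7.12, edgeR adjusted p = 0.00274) and 2.49-fold in DKO-severe (95% interval 1.46 to 4.24, adjusted p = 0.00806), and both comparisons reached the smallest value that a two-sided exact permutation test of 4 against 4 libraries allows, p = 0.0286. The level in DKO-severe was 0.60 times that in DKO-moderate (95% interval 0.36 to 1.01, edgeR adjusted p = 0.142). The order of means was DKO-moderate, DKO-severe, WT, of which the first pair did not differ beyond its spread. The 10 Tfh-related genes summed to 275.5 to 503.3 CPM in WT, 950.7 to 2144 CPM in DKO-moderate and 2136 to 3072 CPM in DKO-severe, and their part in the *Il4* result was not tested. With terms for the mean neutrophil and B cell level, the log2 fold change of *Il4* in DKO-severe fell from 1.32 to 0.78 and no longer passed (edgeR adjusted p = 0.326).

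*Il13*, the effector cytokine of mucus production and tissue remodelling, was spread over 2 orders of magnitude among DKO mice. The WT libraries held 11, 11, 10 and 7 reads (0.32, 0.35, 0.29 and 0.19 CPM). DKO-moderate held 7, 169, 15 and 52 reads (0.19, 5.33, 0.37 and 1.38 CPM), and DKO-severe held 584, 80, 12 and 39 reads (18.9, 2.44, 0.29 and 0.93 CPM). Thus DKO-moderate 1 and 3 and DKO-severe 3 were at the WT level, the other 5 DKO libraries were above it, and both DKO groups overlapped WT. DKO-severe 1 held 81.7% of the *Il13* reads of its group and DKO-moderate 2 held 69.5% of those of its group. The fitted fold in DKO-severe against WT was 19.4 (95% interval 2.63 to 143.8, edgeR adjusted p = 0.0172), and the exact permutation test gave p = 0.114. Without DKO-severe 1 the log2 fold change fell from 4.28 to 2.07 and did not pass (adjusted p = 0.113), and with limma voom it was 2.52 (adjusted p = 0.172). DKO-moderate against WT gave a fold of 6.24 (95% interval 0.93 to 41.9, adjusted p = 0.170) and DKO-severe against DKO-moderate a fold of 3.12 (95% interval 0.54 to 17.9, adjusted p = 0.324).

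*Il5*, the growth factor of eosinophils, was close to the limit of detection. WT libraries held 0, 1, 1 and 0 reads, DKO-moderate 4, 5, 2 and 4 reads, and DKO-severe 0, 33, 7 and 1 reads, where 3 reads stand for 0.071 to 0.097 CPM. Each DKO-moderate library was above each WT library, though by 1 to 5 reads, and DKO-severe included both a library with 0 reads and the highest of all, DKO-severe 2, at 1.005 CPM (exact Poisson 95% interval 0.69 to 1.41, which covers counting error only). Pooled over libraries, 41 reads in DKO-severe against 2 in WT gave a ratio of 19.1 (exact 95% counting interval 4.95 to 162.7), and 15 in DKO-moderate against 2 gave 6.98 (1.62 to 62.9). DKO-severe 2 held 80.5% of the reads of its group. In the edgeR fit *Il5* rose in DKO-severe (log2 fold change 4.04, SE 1.38, adjusted p = 0.0274), a value that depends on the handling of the near-zero WT counts, and was at 2.56 in DKO-moderate (SE 1.44, adjusted p = 0.240). The call in DKO-severe was lost without DKO-severe 2 (log2 fold change 1.97, adjusted p = 0.183), WT 1 (adjusted p = 0.0681) or WT 4 (adjusted p = 0.0674), and the exact permutation test over libraries gave p = 0.343. DKO-severe 2, which had the most *Il5* reads, was also the library with the highest B cell sum, 383.0 CPM, and the highest eosinophil sum, 7.92 CPM over 7 genes, and their part in the result was not tested. The *Il5* receptor chain *Il5ra* was at 41 reads in the same library and at 0 to 21 reads in the other 11.

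*Il1rl1*, the ST2 receptor gene, reached 1.29, 2.29, 4.63 and 1.97 CPM in the WT libraries. In DKO-moderate it reached 8.67, 5.20, 4.32 and 7.31 CPM, and in DKO-severe 7.07, 8.25, 6.67 and 2.63 CPM. WT 3 was the highest WT library and lay above DKO-moderate 3 and DKO-severe 4, so that both DKO groups overlapped WT by 1 library. The fold against WT was 2.42 in DKO-severe (95% interval 1.27 to 4.59, edgeR adjusted p = 0.0249) and 2.50 in DKO-moderate (95% interval 1.32 to 4.76, adjusted p = 0.0518), of which the first passed. The DKO groups did not differ beyond their spread (fold 0.96, 95% interval 0.51 to 1.81, adjusted p = 0.940). WT 3 also had the highest B cell and monocyte sums among WT libraries, whose part in the result was not tested. Without WT 3 both comparisons passed, with log2 fold changes of 1.73 in DKO-severe (adjusted p = 0.00452) and 1.78 in DKO-moderate (adjusted p = 0.0148). The call in DKO-severe was lost in turn without WT 1, 2 or 4 or DKO-severe 1 or 2, with log2 fold changes from 1.05 and adjusted p up to 0.0659, and DESeq2 called the rise in DKO-moderate too (adjusted p = 0.0128). The 15 exact permutation tests of the 5 members gave 3 p-values at the smallest value allowed, for *Il4* in both comparisons with WT and for *Il5* in DKO-moderate.

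Transcripts of basophils, innate cells that release IL-4 and IL-13, were highest in the same 5 libraries as *Il13*, though in a different order. The sum of *Mcpt8*, *Prss34*, *Cpa3* and *Fcer1a*, the protease and IgE receptor genes that define basophils and mast cells, was 0.029 to 0.46 CPM in WT, 0.45, 20.1, 0.52 and 29.4 CPM in DKO-moderate and 15.4, 8.62, 1.24 and 4.38 CPM in DKO-severe. The 5 libraries with the highest sums were the 5 with the highest *Il13*, and DKO-moderate 1 and 3 and DKO-severe 3, the DKO libraries with *Il13* at the WT level, had the 3 lowest sums among DKO libraries. Within the 5 the order differed, since DKO-moderate 4 had the highest sum with *Il13* at 1.38 CPM. DKO-severe 1, at a sum of 15.4 CPM, had *Il13* at 18.95 CPM. These 4 genes were chosen after the data were seen. The whole list of 10 basophil and mast cell genes summed to 4.52 to 6.33 CPM in WT, 4.04 to 34.3 CPM in DKO-moderate and 18.0 to 41.2 CPM in DKO-severe. Of its 8 tested genes, 5 rose and 1 fell in DKO-severe, and 4 rose and 1 fell in DKO-moderate. Over all tested genes, 26.6% rose and 25.9% fell in DKO-severe, and 12.3% rose and 4.74% fell in DKO-moderate. *Mcpt8*, *Prss34* and *Fcer1a* held 7, 2 and 3 reads over the WT libraries, under the filter of 10 reads. They were tested only through the DKO groups, which favoured a rise in advance, so the counts for this list and the background are not alike. The mast cell tryptase *Tpsab1* was at 0 in all libraries and *Tpsb2* at 0 in WT and at 0 to 3 reads in DKO, while *Cd200r3* went the other way, from 2.82 to 4.08 CPM in WT to 0.26 to 0.70 CPM in DKO-severe.

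*Il4* was also highest in DKO-moderate 2 and 4 and in DKO-severe 2. DKO-moderate 1 and 3, in which the 4 basophil genes summed to 0.45 and 0.52 CPM, near the 0.46 CPM of WT 3, held 4.62 and 5.29 CPM of *Il4*, against 2.36 CPM in WT 3. Without the 4 libraries with the most basophil reads, *Il4* rose by a log2 fold change of 1.52 in DKO-moderate (edgeR adjusted p = 0.0254) and 1.12 in DKO-severe (adjusted p = 0.0206). That fit, chosen after seeing the data, kept DKO-severe 3 and 4, whose basophil sums of 1.24 and 4.38 CPM were above all WT libraries. In the same fit *Il13* was at -0.05 in DKO-moderate (adjusted p = 0.973) and 1.11 in DKO-severe (adjusted p = 0.138). The 4 libraries left out were also the 4 with the highest *Il13*. Their removal lowers *Il13* in the DKO groups in advance, so this fit does not test its source. With the mean log2 CPM of the 4 basophil genes as a term over all 12 libraries, neither gene passed, and *Il4* was at 1.47 in DKO-moderate (adjusted p = 0.0576) and 0.79 in DKO-severe (adjusted p = 0.149). DKO-severe 1, the highest *Il13* library, also had the highest neutrophil sum, and with terms for neutrophil and B cell genes *Il13* in DKO-severe against WT turned to -1.86 (adjusted p = 0.206). How much of the signal of either cytokine came from other cells was not tested.

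**Figure D3:**
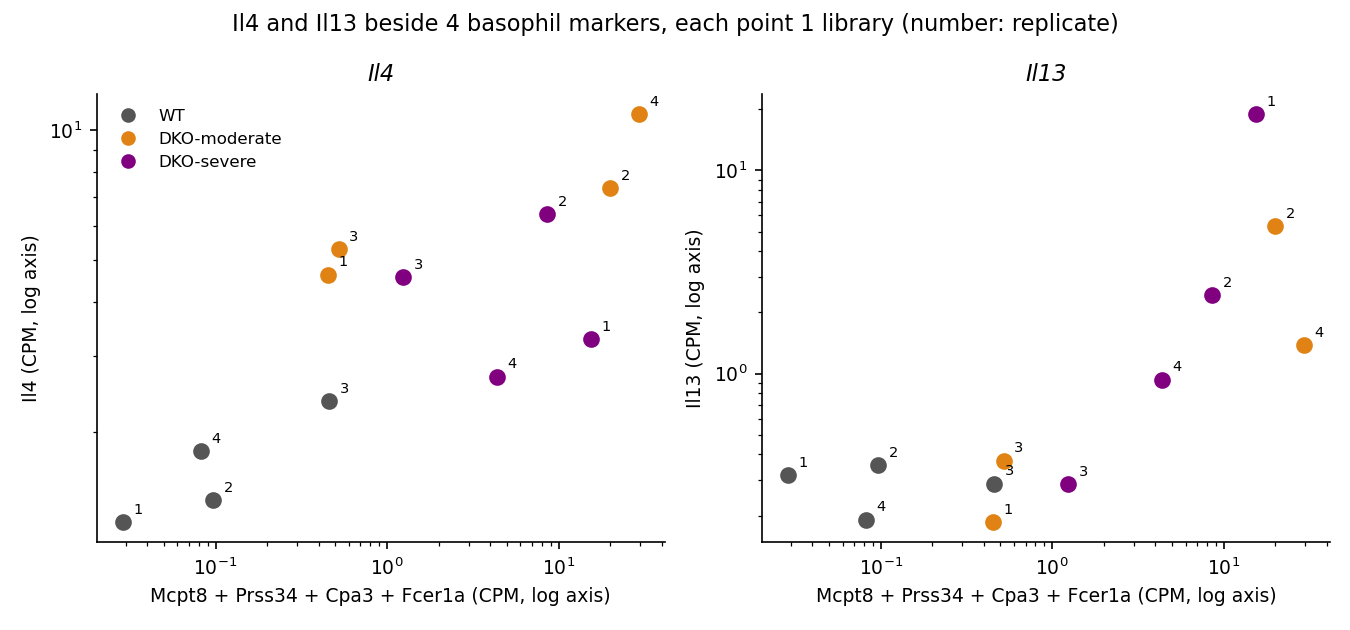
CPM of *Il4* (left) and *Il13* (right) against the summed CPM of *Mcpt8*, *Prss34*, *Cpa3* and *Fcer1a*, both on log axes, with 1 point per library and its replicate number. *Il13* exceeds 0.9 CPM only in the 5 libraries with basophil sums of 4.38 CPM or more, while *Il4* is above all WT libraries also in DKO-moderate 1 and 3.

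The markers of other cells known to make these transcripts were at the following levels. Counts of genes that rose or fell stand beside 26.6% and 25.9% of all tested genes in DKO-severe and 12.3% and 4.74% in DKO-moderate. Any marker with fewer than 10 reads over the WT libraries was tested only through the DKO groups, which favours a rise. The 7 eosinophil genes summed to 0.13 to 7.92 CPM over all libraries, with *Epx* and *Ear1* at 0 in WT, and 3 of the 6 tested rose in DKO-severe. The 6 ILC2 genes summed to 9.37 to 14.7 CPM in WT, 12.1 to 19.9 CPM in DKO-moderate and 9.48 to 18.6 CPM in DKO-severe, and *Calca* was at 0 in WT. Of the 5 ILC2 genes tested, 2 rose and 0 fell in DKO-severe, and 1 rose and 0 fell in DKO-moderate. The 8 genes of the Treg signature, a population in which *Il1rl1* is also found, summed to 209.7 to 323.7 CPM in WT, 551.8 to 871.6 CPM in DKO-moderate and 999.6 to 1189 CPM in DKO-severe, with 6 of 8 higher and 2 lower in DKO-severe. *Foxp3* itself fell in DKO-severe (log2 fold change -2.10, SE 0.68, edgeR adjusted p = 0.0205). The 5 natural killer T cell genes summed to 235.2 to 315.3 CPM in WT and 480.3 to 785.4 CPM over both DKO groups. Of these, 2 rose and 1 fell in DKO-severe, and 2 rose and 0 fell in DKO-moderate.

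The composition of the 3 cytokines differed between mice. By reads per length, *Il4* made up 78.2% to 90.2% of the sum of *Il4*, *Il5* and *Il13* in WT, 57.0% to 94.4% in DKO-moderate and 14.5% to 91.5% in DKO-severe. In DKO-severe 1 *Il13* made up 85.5%, whereas in 11 of 12 libraries *Il4* was the most abundant of the 3. The sums rest on 54 to 93 reads in WT and 152 to 685 reads in DKO libraries.

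*Il4ra*, the chain shared by the receptors for IL-4 and IL-13, fell stepwise from 367.9 ± 23.3 CPM in WT to 192.8 ± 66 CPM in DKO-moderate and 91.4 ± 15.3 CPM in DKO-severe (SD, n = 4 each), with no overlap between groups. Its log2 fold change was -0.93 in DKO-moderate (SE 0.21, edgeR adjusted p = 0.00959), -2.01 in DKO-severe (SE 0.21, adjusted p = 1.95e-05) and -1.08 in DKO-severe against DKO-moderate (SE 0.21, adjusted p = 0.00635). With neutrophil and B cell covariates the last of these was at -0.76 and did not pass (adjusted p = 0.279), and with the basophil term the first was at -0.51 (adjusted p = 0.132). Of the 8 tested genes of the IL-4 and IL-13 receptors and their signalling, 2 rose and 3 fell in DKO-severe, with a median of -0.10, beside 26.6% and 25.9% of all tested genes. The Janus kinases went both ways, with *Jak3* at 1.15 and *Jak1* at -0.65, and the common gamma chain *Il2rg* at -0.43, all past the threshold in DKO-severe. With neutrophil and B cell covariates *Jak1* (-0.55, adjusted p = 0.111) and *Il2rg* (-0.28, adjusted p = 0.275) did not pass. *Stat6*, which carries the IL-4 signal to *Gata3*, was at 278.0 CPM in WT and 238.9 CPM in DKO-severe (log2 fold change -0.22, SE 0.11, adjusted p = 0.107). The decoy receptor gene *Il13ra2* had 0 reads in all libraries, which allows up to 3 reads per library.

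On the IL-33 side, the co-receptor *Il1rap* was at 23.7 CPM in WT and 19.4 CPM in DKO-severe (log2 fold change -0.28, SE 0.15, edgeR adjusted p = 0.139). Of the 7 tested genes of this list, 3 rose and 1 fell in DKO-severe, and 1 rose in DKO-moderate, beside the same background of 26.6% and 25.9% in DKO-severe and 12.3% risen in DKO-moderate. The inhibitory receptor of the family *Sigirr* (1.13), and the kinases *Irak2* (0.61) and *Irak4* (0.61), rose in DKO-severe, and the ubiquitin ligase *Traf6* (-0.56) fell, the last not with the same covariates (-0.35, adjusted p = 0.345). *Il33* itself had 0 to 3 reads per library and was not tested.

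Of 15 genes that promote *Gata3* or the Th2 programme, 8 rose and 4 fell in DKO-severe (median 0.39), 6 rose and 3 fell in DKO-moderate (median 0.24), and 4 rose and 3 fell in DKO-severe against DKO-moderate. The background over all tested genes was 26.6% risen and 25.9% fallen, 12.3% and 4.74%, and 9.41% and 10.7% in these comparisons. *Maf*, an activator of *Il4* that is also a Tfh factor, was at 55.5, 297.6 and 574.6 CPM in WT, DKO-moderate and DKO-severe (log2 fold change 3.37 in DKO-severe, SE 0.32, edgeR adjusted p = 1.17e-05). *Irf4*, needed for several effector T cell fates, rose by 3.06, *Rbpj*, the nuclear partner of Notch, by 1.45, and *Gfi1*, a repressor induced by IL-4 and T cell receptor signals, by 1.01. Among 10 factors that oppose GATA3 or Th2 differentiation, 2 rose and 2 fell in DKO-severe, beside the same background. *Bcl6* (2.27), which encodes the lineage-defining transcription factor of Tfh cells, and the GATA cofactor *Zfpm1* (1.13) rose. *Lef1* (-2.39) and *Sox4* (-2.68), both genes of naive T cells among their other roles, fell. *Zfpm1* did not pass with the covariates for other cells (0.99, adjusted p = 0.0527). *Tbx21*, the Th1 regulator T-bet, was at 21.8, 32.8 and 28.3 CPM in the same order of groups and did not pass against WT (adjusted p = 0.345 in DKO-severe).

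**Figure D4:**
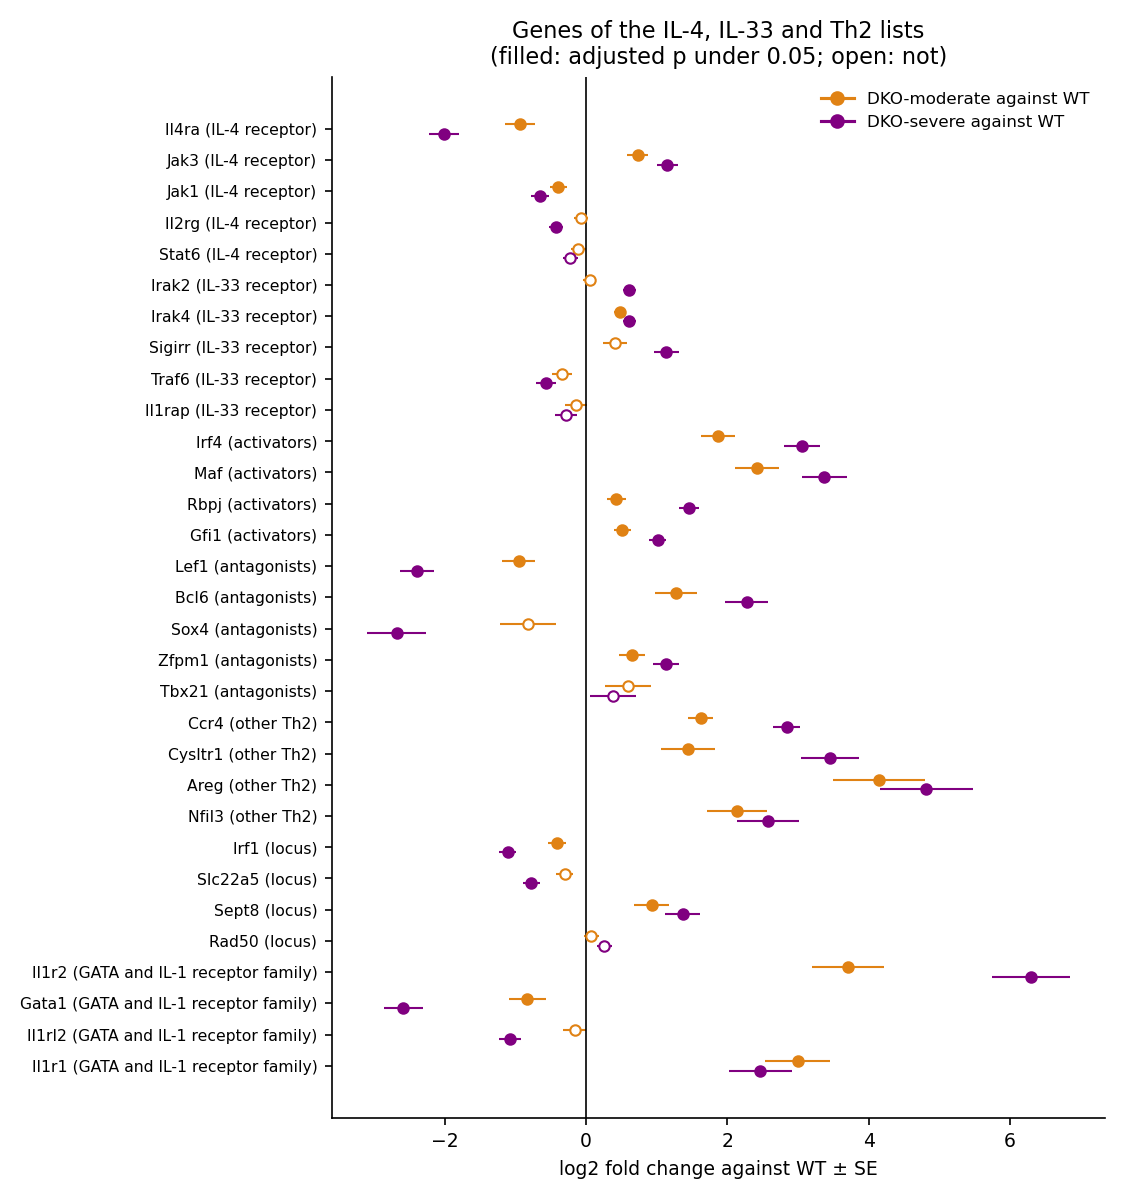
Log2 fold changes against WT (± SE from the edgeR fit) of the named genes of the pathway lists in DKO-moderate and DKO-severe, filled where the adjusted p was under 0.05. *Il4ra* falls in both, *Maf* and *Irf4* rise in both, and *Stat6*, *Il1rap* and *Tbx21* pass in neither.

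Of 16 other genes used as Th2 markers, 12 were tested, of which 7 rose and 1 fell in DKO-severe (median 1.75) and 4 rose and 0 fell in DKO-moderate (median 0.89), beside 26.6% and 25.9%, and 12.3% and 4.74%, of all tested genes. The chemokine receptor *Ccr4* went from 20.7 CPM in WT to 63.6 CPM in DKO-moderate and 147.9 CPM in DKO-severe (log2 fold change 2.84 in DKO-severe, SE 0.19, edgeR adjusted p = 3.28e-06). The epidermal growth factor family ligand *Areg* (4.82), the leukotriene receptor *Cysltr1* (3.45) and the transcription factor *Nfil3* (2.57) also rose. *Il24* and *Il31* had 0 reads in all libraries, *Il9* had 5 reads, all in DKO-severe 1, and *Il3* had 0 to 3 reads per library.

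Of the 5 tested chromosomal neighbours of the chromosome 11 members, 1 rose and 2 fell in DKO-severe, beside 26.6% and 25.9% of all tested genes. *Rad50*, which lies between *Il13* and *Il5* and holds their locus control region, was at 50.4, 53.1 and 60.5 CPM in WT, DKO-moderate and DKO-severe and did not pass (log2 fold change 0.26 in DKO-severe, SE 0.11, edgeR adjusted p = 0.0579). *Irf1* (-1.11) and *Slc22a5* (-0.77) fell and *Sept8* (1.37) rose. Beside *Il1rl1*, the decoy receptor *Il1r2* rose from 1.19 CPM in WT to 15.6 and 93.2 CPM (log2 fold change 6.29 in DKO-severe, SE 0.55, adjusted p = 7.99e-06), *Il1r1* rose by 2.47 and *Il1rl2* fell by 1.08 on the log2 scale. *Il1r1* did not pass with neutrophil and B cell covariates (1.70, adjusted p = 0.0897). The paralogue *Gata1*, a factor of the erythroid and mast cell lineages, fell from 6.40 CPM in WT to 3.60 and 1.06 CPM (log2 fold change -2.58 in DKO-severe, SE 0.28, adjusted p = 2.17e-05), and *Gata4*, *Gata5* and *Gata6* did not pass the filter. Of the 7 tested genes of this list, 3 rose and 2 fell in DKO-severe, beside the same background.

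The genes whose log2 CPM over the 12 libraries was most like that of each member are given as a description, since the libraries share group and composition. Among 11859 genes with at least 1 CPM, they were *Rnasek* (Pearson r = 0.90), *Clec2d* (0.86) and *Hopx* (0.85) for *Gata3*, and *Lax1* (0.95), *Sdf2* (0.95) and *Igf2bp3* (0.93) for *Il4*. For *Il1rl1* they were *Cish* (0.95), a target of cytokine signalling through STAT5, *Pigf* (0.94) and *Ifitm1* (0.93). For *Il13* they were *Scarf2* (0.94), *Rasgrp4* (0.93), known from mast cells and neutrophils, and *Csn1s1* (0.90), and for *Il5*, *Gm4956* (0.92), *Bend6* (0.87) and *Bend4* (0.85), from counts mostly under 8 reads. With a prior count of 0.5 in place of 2, the same 3 genes were found for *Gata3*, *Il4* and *Il1rl1*, and 2 of the 3 for *Il5* and for *Il13*.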

How the data were processed

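Bulk RNA sequencing of CD4+ YFP(FOXP3)- T cells was analysed for 12 mice, with 1 library per mouse and 4 mice in each of the WT, DKO-moderate and DKO-severe groups. The authors prepared directional libraries, aligned reads to mm10 with STAR 2.7.11 (per the labels) and discarded those with several positions. Counting per gene used htseq-count, reverse-stranded, and the deposited values are raw counts. The annotation used for counting is not given in the sources used here. Rows that name no gene held 18.5% to 23.7% of records and were left out. Reads on genes numbered 29254260 to 42133536 per library.

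A gene was tested if its 4 libraries in any condition together held 10 reads or more (16035 genes). Counts were scaled by TMM, and all 12 libraries were fitted in edgeR 4.0.16 (quasi-likelihood F test) under R 4.3.3. P-values were adjusted after Benjamini and Hochberg over the tested genes with a threshold of 0.05. The standard error is the size of the log2 fold change divided by the square root of F, and intervals use its 95% t quantile. The 15 exact permutation tests on CPM were two-sided. Intervals of counts cover counting error only. The study names DESeq2, which was run as an alternative (1.42.0), as were limma voom (3.58.1), other scalings and filters, fits of both compared groups alone, a block by replicate number, terms for other cells and each library left out in turn. The edgeR, DESeq2 and limma fits were tested on simulated data. Changes were planted there only in genes with a mean level above that of *Il5*, so changes at such low counts were not tested.

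Replicate numbers did not pair the libraries. Residuals correlated at -0.27 to 0.21 for the same number and at -0.32 to 0.30 for different numbers. The 5 members and all lists were chosen with earlier results of these data known. All members are given; from each pathway list, up to 4 genes with the smallest adjusted p in DKO-severe against WT are named, with *Il4ra*, *Stat6*, *Il1rap*, *Maf*, *Tbx21* and *Bcl6* in any case, and of each marker list the summed CPM. Other genes (*Tet2*, *Tet3*, *Foxp3*, *Il5ra*, *Cd200r3*, *Junb*, *Tcf7*, *Stat5b*, *Ikzf1* and genes at or near 0) were named after their values were seen. They are not counted among the named list genes. Gene coordinates and exon lengths were taken from GENCODE, and promoter windows from RefSeq, both on GRCm38. Plots were drawn in matplotlib 3.10.9, and exact tests were run with scipy 1.17.1 under Python 3.11.15.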

Additional observations from a re-analysis of the deposited data

Results flagged for a closer look

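In 2 of 15 groups of 4 libraries, a single library stood apart by Dixon's criterion, which chance alone exceeds in about 1 group in 20. These were *Il13* in DKO-severe 1, at 18.9 CPM, and *Il5* in DKO-severe 2, at 1.005 CPM. No other member had such a library in any group.

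None of the 5 members differed between DKO-severe and DKO-moderate in the edgeR test of that difference, where 20.1% of all tested genes did. Among the named genes of the lists, 18 differed. Most named genes were picked for the smallest adjusted p in DKO-severe against WT, so their count cannot be set against that of the members. The differences in log2 fold change of these 18 are given for DKO-severe minus DKO-moderate. The larger values in DKO-severe were those of *Il1r2* (2.58), *Cysltr1* (2.003), *Ccr4* (1.22), *Irf4* (1.19), *Rbpj* (1.02), *Bcl6* (0.9997), *Maf* (0.95), *Sigirr* (0.72), *Irak2* (0.56) and *Gfi1* (0.50). The lower values were those of *Sox4* (-1.86), *Gata1* (-1.75), *Lef1* (-1.44), *Il4ra* (-1.08), *Il1rl2* (-0.91), *Irf1* (-0.70), *Slc22a5* (-0.47) and *Il2rg* (-0.36). With terms for neutrophil and B cell genes, 15 of these 18 did not pass, the exceptions being *Irak2*, *Il1r2* and *Il1rl2*, and in that fit the calls over all genes went from 3217 to 220. *Il4ra* was then at -0.76 (edgeR adjusted p = 0.279) and *Maf* at 0.66 (adjusted p = 0.443). With the replicate block *Il2rg* (adjusted p = 0.0549), *Maf* (adjusted p = 0.0543) and *Bcl6* (adjusted p = 0.051) did not pass.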

How the results depend on the processing

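*Gata3* passed in no comparison under any alternative. *Il4* kept its rise against WT in both DKO groups when each library was left out, with log2 fold changes of 1.07 to 1.52 in DKO-severe and 1.76 to 2.25 in DKO-moderate, and lost it only with terms for other cells. The causes of the changes below were not tested, except that leaving out libraries gives fewer samples. In DKO-severe against WT, the neutrophil and basophil terms cannot be fully told apart from the group.

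For DKO-severe against WT, the log2 fold change of *Gata3* turned from -0.05 to 0.036 in DESeq2 and with its size factors in edgeR, to 0.14 with library size alone and to 0.0041 with only the groups compared, and ranged from -0.14 to 0.024 with each library left out. *Il5* no longer passed in limma voom (2.02), with only the groups compared (4.09) or with neutrophil and B cell terms (2.73), and ranged from 1.97 (without DKO-severe 2) to 4.54 over the libraries left out. It failed filterByExpr and the filter when the basophil-rich libraries were left out. *Il13* no longer passed in limma voom (2.52), turned to -1.86 with neutrophil and B cell terms, and ranged from 2.07 (without DKO-severe 1) to 4.70. *Il4* (0.78) and *Il1rl1* (0.69) no longer passed with neutrophil and B cell terms, and *Il1rl1* ranged from 1.05 to 1.73. With the replicate block, which is not supported by a shared source of the numbers, *Il5* (3.40, edgeR adjusted p = 0.05, just above the threshold) and *Il13* (3.09, adjusted p = 0.0863) no longer passed, and the block changed no other call of the 5 members.

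*Il1rl1* in DKO-moderate against WT passed in DESeq2 (1.32), with library size alone (1.40), filterByExpr (1.32), only the groups compared (1.32) and neutrophil and B cell terms (1.51), and ranged from 1.10 to 1.78 over the libraries left out. In DKO-severe against DKO-moderate no member passed. *Il5* turned to -0.12 in limma voom and -0.91 with neutrophil and B cell terms and ranged from -0.58 to 1.92, *Il13* turned to -2.88 with those terms and ranged from -0.57 to 3.12, and *Il1rl1* turned to 0.027 in DESeq2 and with its size factors and 0.058 with library size alone and ranged from -0.20 to 0.25.

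In alternatives chosen after seeing the data, leaving out WT 3, DKO-severe 1 and DKO-severe 2 gave *Il5* 2.90 and *Il13* 1.08 in DKO-severe against WT, neither past the threshold, *Il1rl1* 1.78 in DKO-moderate, past it, and *Il5* -0.11 and *Il13* -1.56 in DKO-severe against DKO-moderate. Leaving out DKO-moderate 2 and 4 and DKO-severe 1 and 2 gave *Il13* 1.11 and *Il1rl1* 0.90 in DKO-severe and *Il13* -0.051 in DKO-moderate. These were also the libraries with the highest *Il13*, so a lower *Il13* in this fit was set in advance. With the basophil term, *Il4* (0.79), *Il5* (3.35), *Il13* (-0.28) and *Il1rl1* (1.09) in DKO-severe and *Il4* (1.47) and *Il13* (-1.46) in DKO-moderate did not pass.

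The number of genes called was 8428 in DKO-severe against WT, 2734 in DKO-moderate against WT and 3217 between the DKO groups. It fell to 3306 and 220 in the first and last with neutrophil and B cell terms, to 4983 and, in DKO-moderate, 679 with the basophil term, to 1467 in DKO-moderate without the basophil-rich libraries and to 2055 between the DKO groups without WT 3, DKO-severe 1 and 2. Over the libraries left out, 1616 (without WT 1) to 2920 genes were called in DKO-moderate and 1646 (without DKO-moderate 1) to 3670 between the DKO groups. With library size alone, 66.5% of calls in DKO-severe against WT were higher, against 50.7%, and between the DKO groups 64.9%, against 46.9% (59.9% in DESeq2, 59.6% with its size factors).

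Most named list genes were picked for the smallest adjusted p in DKO-severe against WT, so the number that passed there was largely set in advance. Of all tested genes, 52.6% were called in DKO-severe against WT, 17.1% in DKO-moderate against WT and 20.1% between the DKO groups. Of the named list genes, 27 passed in DKO-severe against WT, 20 in DKO-moderate against WT and 18 between the DKO groups. In the same order, 5, 5 and 15 of these calls were lost with neutrophil and B cell terms, 2, 14 and 0 with the basophil term, 0, 9 and 0 without the basophil-rich libraries, 1, 4 and 4 without WT 3, DKO-severe 1 and 2, 0, 5 and 3 with the replicate block, 0, 3 and 3 with only the groups compared and 0, 3 and 2 with library size alone. In DESeq2 none of them was lost. With 1 library left out, none was lost in DKO-severe against WT, 1 to 7 in DKO-moderate and 0 to 4 between the DKO groups. Small values of named list genes changed sign in DKO-moderate against WT for *Il2rg* (0.0040 with library size alone, 0.024 with the basophil term), *Stat6* (0.040 without the basophil-rich libraries, 0.056 with the basophil term) and *Il1rap* (0.041 and 0.099 in the same fits), and between the DKO groups for *Stat6* (0.0047 with library size alone, 0.023 with neutrophil and B cell terms). Over the libraries left out, they did so for *Il2rg* (-0.12 to 0.015), *Rad50* (-0.00040 to 0.17) and *Il1rap* (-0.25 to 0.0010) in DKO-moderate against WT and for *Il1r1* (-0.81 to 0.04) between the DKO groups.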
